A study of Mus musculus with 6 samples.

Results

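A set of 9 genes known for their expression in the excitatory neurons of the basolateral amygdala were followed in amygdala RNA from mice on a zinc diet and mice on a control diet. The genes were Slc17a7, Slc17a6, Neurod1, Neurod2, Neurod6, Tbr1, Rspo2, Lmo3 and Etv1, and every probe set whose annotation gave 1 of these symbols was taken. This gave 13 probe sets for 8 of the 9 genes, among 34958 probe sets with a single symbol in a table of 45101. Etv1 was annotated on 3 further probe sets only together with a second gene, so no value is given for it. Of the 13 probe sets, 11 passed a filter of a mean log2 level of at least 4 over all arrays and were tested, and they covered all 8 genes. The probe sets left out were 1 of Rspo2, at 2.94 to 3.13, and 1 of Neurod2, at 2.10 to 2.37 on all 6 arrays.

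The zinc diet group held 3 male 129S1/SvImJ mice (replicates 3, 7 and 10), and the control diet group held 3 male mice of the same strain (replicates 1, 9 and 11). All 6 mice were 8 to 10 weeks old and had undergone fear extinction training, and the amygdala was taken 2 h later. The strain is inbred and known for poor fear extinction, and no group without training was analysed here. The labels call the diet "ZnR" without giving its zinc content. The direction of the change in dietary zinc is thus unknown, and "zinc diet" serves here only as a name. Each mouse gave 1 Affymetrix Mouse430_2 array, which reads the 3′ part of transcripts, and the comparison asks how the diet bears on amygdala transcripts after extinction.

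The basolateral amygdala is a pallial structure whose principal cells are glutamatergic, like the pyramidal neurons of the cortex, and its projections to the central amygdala and the intercalated cells take part in learning and extinguishing fear. Its excitatory neurons load glutamate into vesicles through the transporters VGLUT1 (Slc17a7) and VGLUT2 (Slc17a6). Their identity is laid down by transcription factors of the NeuroD and T-box families. In mice, Rspo2 and Ppp1r1b mark separate populations of basolateral excitatory neurons.

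By their mean values, some members lay higher in zinc diet mice, some lay lower and some were nearly level. Rspo2 was 1.71-fold and Neurod6 1.59-fold higher in zinc diet mice, and Tbr1 was 1.33-fold higher with overlapping groups. Lmo3 was 1.34-fold lower. Neurod1 was 1.28-fold lower on its brighter probe set and 1.19-fold lower, with overlapping groups, on the other. Slc17a7, Slc17a6 and Neurod2 differed by no more than 0.12 on the log2 scale. None of these differences passed the adjusted threshold of 0.05: 0 of 11 member probe sets did, as did 0 of all 22877 probe sets tested (0% called, limma with Benjamini-Hochberg adjustment). At an unadjusted p under 0.01, 2 member probe sets were higher, against a background of 1.04% of all probe sets, and 1 was lower, against a background of 0.485%. The 3 together compare with 1.53% of all probe sets in either direction, and at an unadjusted p under 0.05 there were 5 member probe sets, against a background of 6.38%. The count of 3 was 4 in 6 of the other settings tried, where Neurod1 was also past 0.01, and Rspo2 alone was left past it when zinc diet replicate 7 or 10 or control diet replicate 11 was omitted.

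The members' probe sets lay on both sides of 0. Their median log2 change was -0.08, against 0.01 over all probe sets tested, and their median absolute change was 0.25, against 0.087. The diets did not overlap on 2 member probe sets that were higher and 2 that were lower, where 6.66% of all tested probe sets were higher without overlap and 5.33% lower. A change at least as large as that of Rspo2, in either direction, was found in 0.402% of all tested probe sets, and the share was 0.616% for Neurod6, 2.45% for Lmo3, 2.75% for Tbr1 and 4.2% for the brighter probe set of Neurod1. These shares describe where the members stood and are no test, since the genes were chosen with earlier results known.

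**Figure D1:**
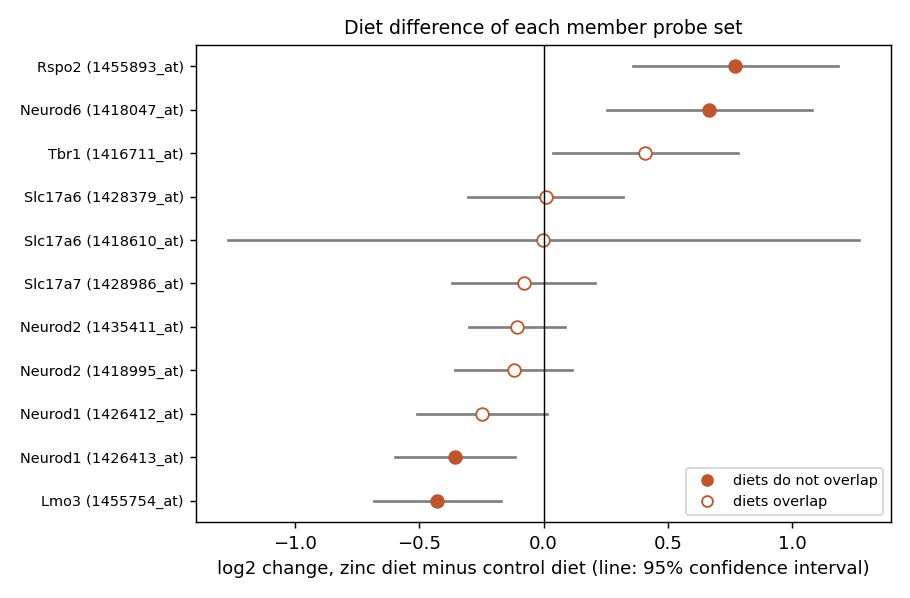
Log2 change of each of the 11 tested member probe sets, zinc diet minus control diet, with its 95% confidence interval from limma as a line. Filled points mark probe sets on which the diets do not overlap: Rspo2 and Neurod6 stand to the right of 0, and Lmo3 and 1 probe set of Neurod1 to the left.

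The promoters of Neurod6, Tbr1, Neurod1 and Lmo3 are shown because members of the NeuroD family, and a T-box and a LIM-only member, had mean changes on opposite sides of 0. The diets overlapped for Tbr1 and for the less bright probe set of Neurod1. Whether the same cells express these genes was not measured. Each window runs from 250 bases before to 50 bases after the annotated start (RefSeq, mouse build GRCm38.p6), is read in the direction of transcription and has a match to a searched motif in capitals. The first 2 belong to genes that were higher in zinc diet mice and the last 2 to genes that were lower.
Neurod6, chr6:55681214-55681513, minus strand: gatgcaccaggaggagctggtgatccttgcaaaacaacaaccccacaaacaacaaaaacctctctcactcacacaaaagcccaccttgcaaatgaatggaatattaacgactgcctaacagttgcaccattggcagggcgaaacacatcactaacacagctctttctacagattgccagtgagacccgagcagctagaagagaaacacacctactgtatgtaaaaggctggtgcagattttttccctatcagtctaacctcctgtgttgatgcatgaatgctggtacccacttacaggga
Tbr1, chr2:61804203-61804502, plus strand: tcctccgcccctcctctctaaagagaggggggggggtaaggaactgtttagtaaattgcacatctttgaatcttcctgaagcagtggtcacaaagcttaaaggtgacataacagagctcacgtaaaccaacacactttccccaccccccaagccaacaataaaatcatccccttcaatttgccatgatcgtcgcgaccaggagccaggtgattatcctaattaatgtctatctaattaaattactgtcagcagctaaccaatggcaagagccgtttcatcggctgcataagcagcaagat
Neurod1, chr2:79456587-79456886, minus strand: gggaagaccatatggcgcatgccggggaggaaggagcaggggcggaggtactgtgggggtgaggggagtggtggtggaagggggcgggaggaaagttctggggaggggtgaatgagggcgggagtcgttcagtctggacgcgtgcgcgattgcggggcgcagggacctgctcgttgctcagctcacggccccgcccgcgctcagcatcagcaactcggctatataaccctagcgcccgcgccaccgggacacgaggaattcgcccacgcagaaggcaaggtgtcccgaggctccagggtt
Lmo3, chr6:138581919-138582218, minus strand: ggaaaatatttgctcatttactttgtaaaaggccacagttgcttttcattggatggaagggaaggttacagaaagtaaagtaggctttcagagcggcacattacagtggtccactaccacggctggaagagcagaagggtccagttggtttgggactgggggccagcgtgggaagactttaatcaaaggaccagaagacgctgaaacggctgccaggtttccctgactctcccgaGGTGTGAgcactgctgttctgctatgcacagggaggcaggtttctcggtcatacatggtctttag

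Windows were found for 8 of the 9 members (all but Rspo2), 10 windows in all, and were searched on both strands for the E-box forms CAGATG (reverse complement CATCTG) and CAGCTG, which NeuroD factors can bind, and for the T-box half-site GGTGTGA (reverse complement TCACACC). Each motif was searched separately, and no window held more than 1 match, so no matches overlapped. None of the 4 windows printed holds either E-box form, and the window of Lmo3 holds GGTGTGA. Over the 10 windows, 3 held CAGATG, 1 each of Slc17a6, Neurod2 and Etv1, none held CAGCTG, and 1 held the T-box half-site. Among 32851 windows of the same length, 17.2% held CAGATG, 16.3% held CAGCTG, 30.6% held either E-box form and 3.98% held GGTGTGA. The GC content was 66.7% in the Neurod1 window, 50.0% in that of Lmo3, 46.3% in that of Neurod6 and 46.0% in that of Tbr1, with a median of 52.7% over all windows. A match describes the letters of a window and shows no binding.

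Rspo2 encodes a secreted R-spondin that strengthens Wnt signalling by binding LGR receptors and sparing Frizzled receptors from degradation. Its tested probe set (1455893_at) had log2 levels of 8.63, 8.77 and 9.13 in zinc diet replicates 3, 7 and 10, against 7.78, 8.25 and 8.18 in control diet replicates 1, 9 and 11. Every zinc diet mouse lay above every control mouse, with a gap of 0.37 between the lowest zinc diet value and the highest control value. The means were 8.84 ± 0.26 for the zinc diet and 8.07 ± 0.25 for the control diet (SD, n = 3 each). The log2 change was 0.77 ± 0.17 (SE), with a 95% confidence interval of 0.36 to 1.19 (limma, unadjusted p = 0.0032, adjusted p = 0.49). The difference was larger than the spread within either diet but did not pass over all probe sets. The second probe set of Rspo2, below the filter, was at 3.10, 2.98 and 3.13 in zinc diet mice against 2.94, 3.02 and 3.06 in control mice, levels at which signal cannot be told from background here.

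Neurod6, a basic helix-loop-helix factor of differentiating and mature pyramidal neurons, had 1 probe set (1418047_at). Its log2 levels were 9.86, 10.05 and 10.49 in zinc diet replicates 3, 7 and 10, against 9.38, 9.65 and 9.37 in control diet replicates 1, 9 and 11. The groups did not overlap, and zinc diet replicate 10 stood 0.45 above the next mouse. The means were 10.13 ± 0.32 for the zinc diet and 9.47 ± 0.16 for the control diet (SD, n = 3 each), a log2 change of 0.67 ± 0.17 (SE; 95% confidence interval 0.25 to 1.08). The limma test gave an unadjusted p of 0.0068 and an adjusted p of 0.59.

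Tbr1 encodes a T-box factor that specifies glutamatergic neurons of the cortex and of the pallial amygdala. Its log2 levels were 9.47, 9.64 and 9.99 in zinc diet replicates 3, 7 and 10, against 9.49, 9.14 and 9.24 in control diet replicates 1, 9 and 11. The groups overlapped only between the lowest zinc diet mouse and the highest control mouse, which were 0.024 apart. The log2 change was 0.41 ± 0.16 (SE), from 9.70 ± 0.27 for the zinc diet and 9.29 ± 0.18 for the control diet (SD, n = 3 each; limma, unadjusted p = 0.036, adjusted p = 0.76). Without zinc diet replicate 10, the highest of the 6 mice, the change was 0.27.

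Lmo3 encodes a LIM-only protein, a nuclear cofactor that binds other transcription regulators and not DNA itself. Its probe set (1455754_at) had log2 levels of 9.22, 8.91 and 8.95 in zinc diet replicates 3, 7 and 10, against 9.37, 9.45 and 9.55 in control diet replicates 1, 9 and 11. Every zinc diet mouse lay below every control mouse, with a gap of 0.15. The means were 9.03 ± 0.17 for the zinc diet and 9.46 ± 0.09 for the control diet (SD, n = 3 each), a log2 change of -0.43 ± 0.11 (SE; 95% confidence interval -0.68 to -0.17). The limma test gave an unadjusted p of 0.0057 and an adjusted p of 0.57.

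Neurod1, the NeuroD factor that also drives maturation of hippocampal granule cells, was measured by 2 probe sets that pointed the same way. The brighter one (1426413_at) was at 9.67, 9.38 and 9.59 in zinc diet replicates 3, 7 and 10, against 9.80, 9.99 and 9.91 in control diet replicates 1, 9 and 11, with no overlap. Its means were 9.54 ± 0.15 for the zinc diet and 9.90 ± 0.093 for the control diet (SD, n = 3 each), a log2 change of -0.36 ± 0.10 (SE; limma, unadjusted p = 0.011, adjusted p = 0.66). The other (1426412_at) was at 8.10, 8.16 and 8.43 in zinc diet mice against 8.39, 8.49 and 8.57 in control mice, where zinc diet replicate 10 lay above control diet replicate 1. Its log2 change was -0.25 ± 0.11 (SE; limma, unadjusted p = 0.06, adjusted p = 0.8). Averaging the probe sets gave -0.30 ± 0.087 (SE).

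Neurod2, the third NeuroD factor, which promotes synapse formation in cortical projection neurons, showed no difference beyond its spread. Its brighter probe set (1418995_at) was at 7.24, 7.01 and 7.32 in zinc diet mice against 7.36, 7.25 and 7.32 in control mice, a log2 change of -0.12 ± 0.099 (SE; 95% confidence interval -0.36 to 0.12). A second (1435411_at) was at 5.95, 5.81 and 5.93 in zinc diet mice against 6.09, 5.99 and 5.93 in control mice, a change of -0.11 ± 0.082 (SE; 95% confidence interval -0.30 to 0.09). The adjusted p was 0.88 and 0.87 (limma), and the groups overlapped on both. The 3 NeuroD genes thus had log2 changes of 0.67 for Neurod6, -0.12 for Neurod2 and -0.36 for Neurod1 on their brightest probe sets, and the differences between these changes were not tested.

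**Figure D2:**
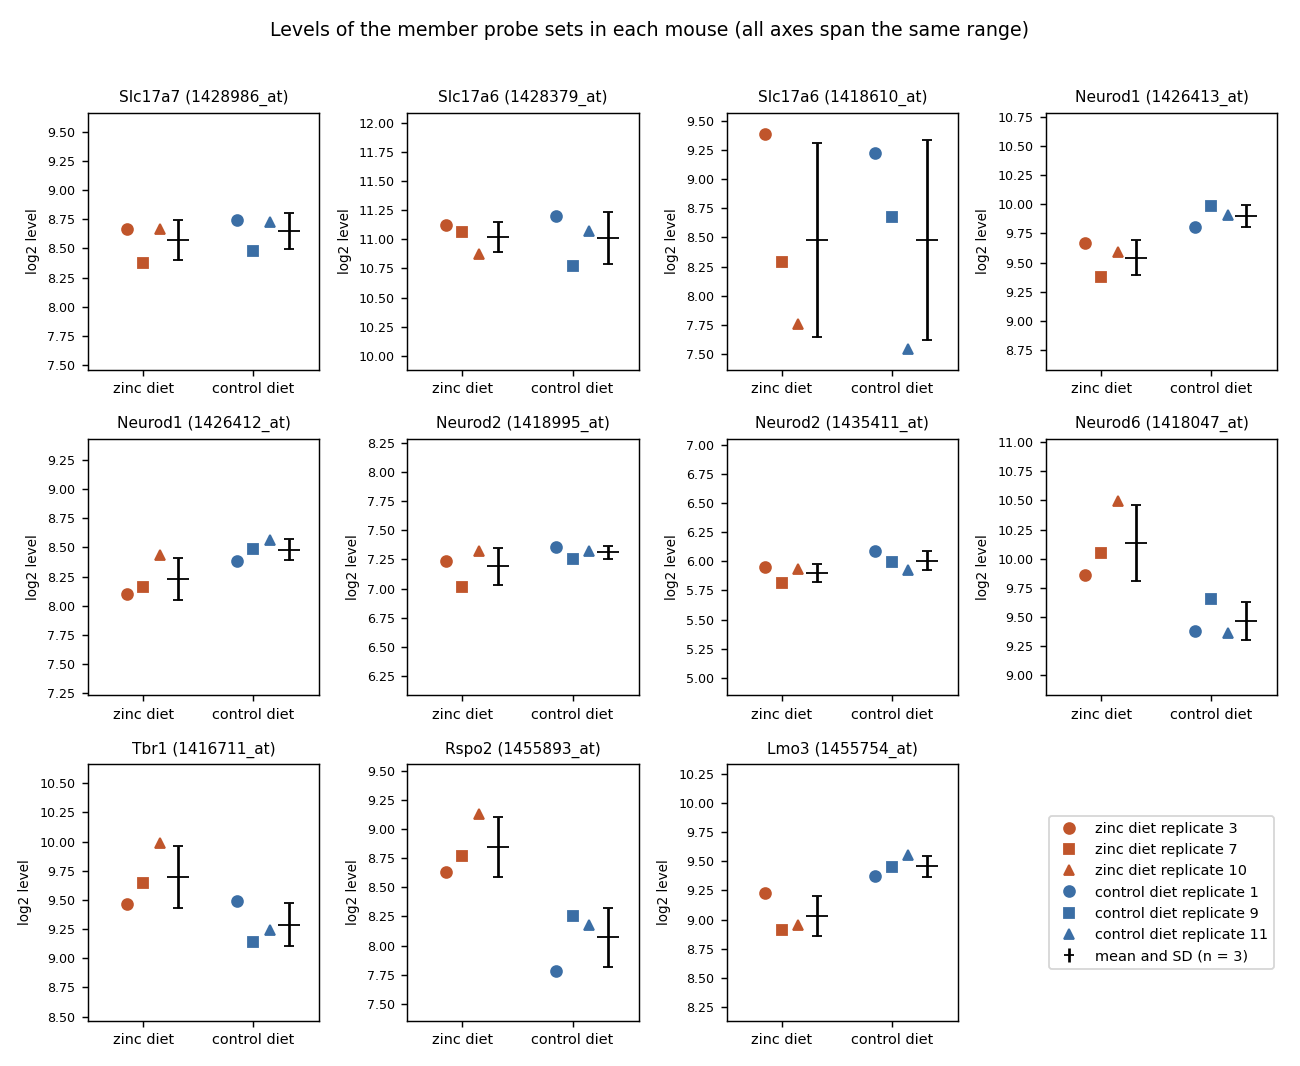
Log2 level of each of the 11 tested member probe sets in every mouse, zinc diet (orange) left of control diet (blue), with the mean and SD of 3 mice in black. All panels span the same number of log2 units, so the wide scatter of Slc17a6 probe set 1418610_at, from 7.54 to 9.39, can be set against the narrow one of Neurod2.

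The vesicular glutamate transporters did not differ detectably by diet. Slc17a7, which encodes VGLUT1, the main form of cortical and basolateral amygdala terminals, was at 8.67, 8.37 and 8.67 in zinc diet replicates 3, 7 and 10, against 8.75, 8.47 and 8.73 in control diet replicates 1, 9 and 11. The groups overlapped, with zinc diet replicate 7 lowest. The log2 change was -0.08 ± 0.12 (SE), with a 95% confidence interval of -0.37 to 0.21 (limma, adjusted p = 0.94).

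Slc17a6 encodes VGLUT2, the form known for thalamic and hypothalamic neurons and for part of the medial amygdala, and its 2 probe sets differed in how much they varied between mice. The brighter one (1428379_at) was at 11.12, 11.07 and 10.88 in zinc diet mice against 11.20, 10.77 and 11.07 in control mice, a log2 change of 0.01 ± 0.13 (SE; 95% confidence interval -0.30 to 0.32). The other (1418610_at) was at 9.39, 8.29 and 7.76 in zinc diet replicates 3, 7 and 10, against 9.22, 8.67 and 7.54 in control diet replicates 1, 9 and 11. It spanned 3.59-fold between the highest and the lowest mouse, against 1.35-fold for the brighter probe set, and both diets covered nearly the whole range. Its log2 change was -0.00 ± 0.53 (SE), with a 95% confidence interval of -1.27 to 1.27, so at this spread a change of 2-fold in either direction was not detectable. The brighter probe set bounds the diet difference of Slc17a6 more tightly.

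The mice did not move as a block over the members. Zinc diet replicate 10 was the highest of the 6 mice for Rspo2, Neurod6 and Tbr1. Zinc diet replicate 7 was the lowest on 5 of the 11 probe sets, those of Lmo3, Slc17a7 and Neurod2 and the brighter one of Neurod1. Zinc diet replicate 3 lay closest to the control mice for Rspo2, Neurod6 and Lmo3 and for the brighter probe set of Neurod1. Among control mice, replicate 1 was the lowest for Rspo2 and the highest for Slc17a7, for both probe sets of Neurod2 and for the brighter one of Slc17a6.

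**Figure D3:**
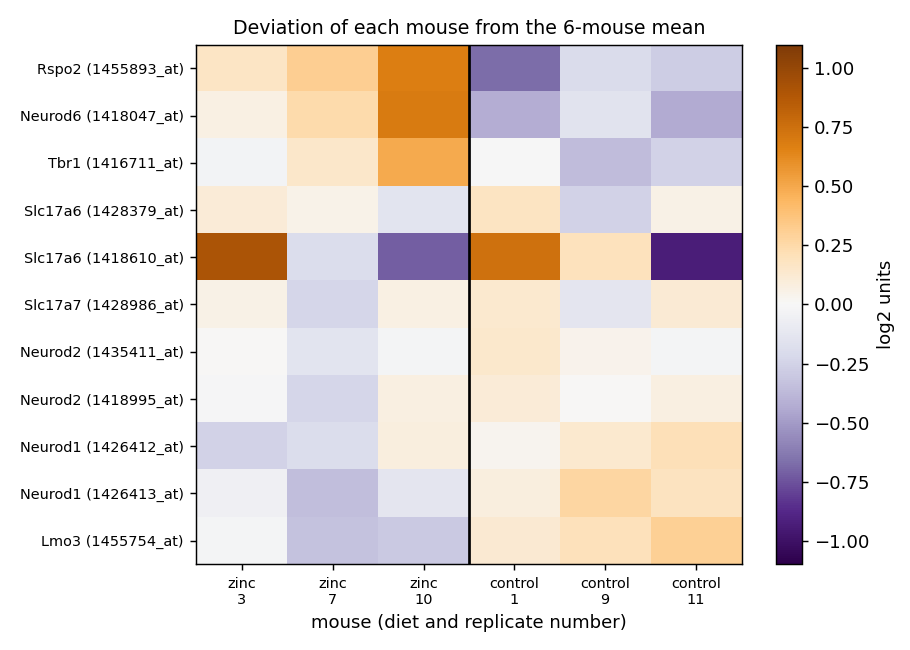
Deviation of each mouse from the mean of all 6 mice for the 11 tested member probe sets, in log2 units (orange above, purple below), with zinc diet mice left of the line. For Rspo2 the deviations run from 0.17 to 0.67 in zinc diet mice and from -0.68 to -0.20 in control mice, while the Slc17a6 probe set 1418610_at varies within both diets.

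Since the tissue was a dissected block, fewer cells of a type and less RNA per cell cannot be told apart, and markers of other cells and regions were therefore read on the same arrays. Pan-neuronal markers were level, with a list mean of 12.83 to 12.85 in zinc diet mice against 12.83 to 12.87 in control mice. All 12 markers of amygdala nuclei passed the filter, and their list mean was 9.24 to 9.34 in zinc diet mice against 8.96 to 9.25 in control mice. Behind this overlap 4 of the 12 were separated upward (Foxp2, Cyp26b1, Calcrl and Tac1) and 1 downward (Cartpt), with differences between diet means of 0.86 for Foxp2 and -0.90 for Cartpt. Of the 12 marker lists, 10 overlapped between the diets and 2 did not. The overlap was very narrow for amygdala nuclei, with a lowest zinc diet mean of 9.2442 and a highest control mean of 9.2453. It was also narrow for GABAergic interneurons (9.249 against 9.2495). The amygdala nuclei list differed by 0.153 between diets, near the 0.17 of the piriform and neocortex list. Markers of striatal spiny and intercalated neurons were at 9.20 to 9.55 in zinc diet mice against 7.94 to 8.29 in control mice, with all 10 measured markers of 12 separated upward. Among them Ppp1r1b, the gene that in mice also marks basolateral neurons other than the Rspo2 ones, averaged 8.67 on the zinc diet against 7.26 on the control diet. Piriform and neocortex markers were at 9.78 to 9.87 in zinc diet mice against 9.51 to 9.74 in control mice, with 5 of the 6 measured higher and only 1 separated between the diets. The striatal list and the piriform and neocortex list each had an exact permutation p of 0.1 (two-sided), the smallest that 3 mice against 3 can give. Without control diet replicate 11 the difference of the piriform and neocortex list was 0.093, against 0.17 with all mice. This list was highest in zinc diet replicate 10, the highest mouse for Rspo2, Neurod6 and Tbr1, and without that mouse its difference was 0.14. The part of either list in the values of Rspo2, Neurod6 and Tbr1 was not tested.

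Hippocampal markers, a set that bears on Neurod1 and Neurod6, were at 5.93 to 6.17 in zinc diet mice against 5.93 to 5.96 in control mice, with 2 of 7 separated upward. The separated ones were Pou3f1, a POU domain factor gene, at 7.22, 7.56 and 7.10 in zinc diet mice against 6.78, 6.10 and 6.54 in control mice, and Wfs1, at 11.42 to 11.49 against 11.34 to 11.41. The part of either in the Neurod6 values was not tested. In the same list, Prox1, a factor of hippocampal granule cells, was near the filter at 4.12 on the zinc diet against 4.14 on the control diet, and Fibcd1, Lct and Dsp lay below it. Thalamic and hypothalamic markers, which bear on Slc17a6, were at 4.76 to 5.84 in zinc diet mice against 4.57 to 5.68 in control mice, with Hcrt, Pomc and Nkx2-1 below the filter. These means hide wide differences between mice of the same diet. Avp was at 9.84, 9.14 and 4.73 in zinc diet mice against 10.96, 4.38 and 5.63 in control mice. Pmch stood far above the other mice in zinc diet replicate 7. The part of such differences in the Slc17a6 values was not tested. The remaining lists also overlapped. List means ran from 9.25 to 9.27 in zinc diet mice against 9.15 to 9.25 in control mice for GABAergic interneurons, from 9.99 to 10.15 against 10.02 to 10.23 for astrocytes, and from 8.09 to 8.12 against 8.03 to 8.18 for microglia. They ran from 9.46 to 10.17 against 8.93 to 9.58 for oligodendrocytes, from 5.94 to 6.03 against 5.77 to 6.04 for endothelium, and from 5.04 to 5.75 against 5.40 to 8.30 for choroid plexus, which stood out in control diet replicate 9. Without that replicate, Rspo2 differed by 0.86, Neurod6 by 0.76, Tbr1 by 0.33 (0.41 with all mice), Lmo3 by -0.43 and Neurod1 by -0.31.

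**Figure D4:**
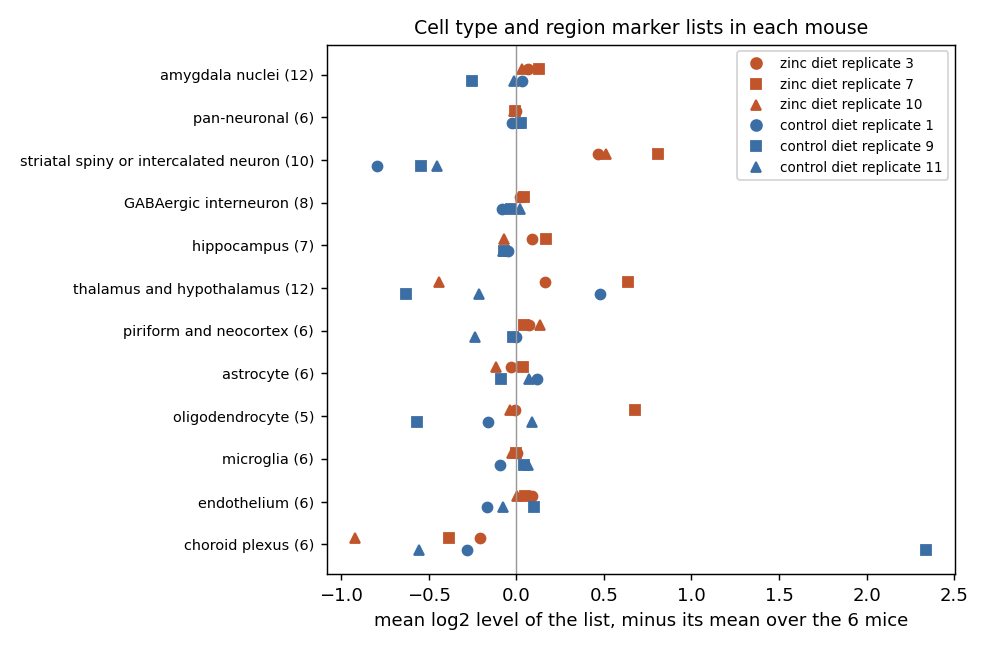
Mean log2 level of each marker list in every mouse, as the difference from the list's mean over the 6 mice, with the number of measured markers in brackets. The striatal spiny or intercalated neuron list separates the zinc diet mice (orange) from the control mice (blue) widely, and the choroid plexus list stands out in control diet replicate 9.

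Genes related to the members by function were read in 7 lists, each gene by its brightest probe set. Of 104 distinct genes 85 were tested, and 5 of them (5.88%) were past an unadjusted p of 0.01, 5 higher and 0 lower. The 5 include Lhx8, which passed the filter only through the zinc diet mice, and the count was 4, without Lhx8, when values under 4 were set to 4. Over all 11221 named genes read the same way 1.81% were past it, with 154 higher and 49 lower. The count was 3 without zinc diet replicate 3 or 10, and 2 without zinc diet replicate 7 or control diet replicate 9 or 11. No gene of the lists passed the adjusted threshold. Some genes not past 0.01 on their brightest probe set were past it on a further one (limma, unadjusted). These were Bcl11a (changes of 0.37 and 0.41), Spred1 (0.35) and Id4 (0.38), while another probe set of Bcl11a gave -0.13.

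Other genes of glutamatergic projection neurons had a median log2 change of 0.07 over 20 tested of 24, with 12 values above 0 and 8 below, against a median of 0.01 over all named genes. Past the unadjusted threshold were Satb1, which encodes a chromatin organiser, and Nr4a2, an orphan nuclear receptor gene of deep cortical layers and the claustrum. Satb1 was at 10.35, 10.41 and 10.48 in zinc diet mice against 10.01, 10.08 and 9.97 in control mice, a log2 change of 0.39 ± 0.075 (SE; limma, adjusted p = 0.39). Changes on 2 further probe sets were 0.32 and 0.47. Nr4a2 was at 10.56, 10.65 and 10.88 in zinc diet mice against 10.30, 10.31 and 10.27 in control mice, a log2 change of 0.40 ± 0.099 (SE; limma, adjusted p = 0.55), with changes of 0.43, 0.30 and 0.27 on 3 further probe sets. Both had their highest value in zinc diet replicate 10, as Rspo2, Neurod6 and Tbr1 did. In this list 3 genes were higher without overlap and 1 lower, against 6.66% and 5.33% of all tested probe sets. The lower one was Camk2a, with a log2 change of -0.17 ± 0.074 (SE; limma, unadjusted p = 0.057). Its 4 further probe sets gave -0.03, -0.26, -0.18 and -0.04.

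Genes around Rspo2 in Wnt signalling had a median of -0.03 over 15 tested of 20, and 0 were past the unadjusted threshold of 0.01. Lef1, a transcription factor of the pathway, had the smallest p, with a log2 change of 0.21 ± 0.086 (SE) at levels of 3.81 to 4.16, next to the filter. Its control diet mean of 3.91 lay below the filter of 4, and its zinc diet mean was 4.12. The change of Lef1 fell to 0.11 when values under 4 were set to 4 (limma, unadjusted p = 0.165). Among partners and inhibitors of proneural factors the median was 0.07 over 11 tested of 15, with 0 past the threshold, and the inhibitor gene Id4 had the smallest p (0.20 ± 0.11 SE, groups overlapping). The 2 further tested probe sets of Id4 gave 0.15 and 0.38, with unadjusted p of 0.19 and 0.0017 (limma), so the last was past 0.01. Genes of glutamate synthesis, uptake and recycling had a median of 0.03 over 11 tested of 13, with 0 past the threshold. The glutamine transporter gene Slc38a2 had their smallest p, with a log2 change of 0.26 ± 0.081 (SE), while its second tested probe set gave 0.06.

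T-box factors with partners and targets of TBR1 had a median of 0.09 over 10 tested of 12, and the 1 gene past the threshold was again Nr4a2. The Etv1 paralogue Etv5, an ETS factor induced by FGF signalling, was the 1 gene past it among PEA3 factors and FGF feedback genes (median 0.11 over 11 tested of 13). Etv5 was at 10.98, 10.99 and 11.15 in zinc diet mice against 10.67, 10.74 and 10.78 in control mice, a log2 change of 0.31 ± 0.082 (SE; limma, adjusted p = 0.59), and its second tested probe set gave 0.28.

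LIM-only factors and their partners had a median of 0.02 over 10 tested of 10, with 5 values above 0 and 5 below, and Lmo3 itself is not counted among them. The paralogue genes Lmo1, Lmo2 and Lmo4 had log2 changes of -0.02 ± 0.08, 0.23 ± 0.072 and 0.10 ± 0.10 (SE), in the order named, beside -0.43 for Lmo3, and the differences between these changes were not tested. Past the unadjusted threshold were 2 LIM homeodomain genes, Isl1, which is known for striatal neurons of the direct pathway and also stands in the striatal marker list, and Lhx8, known for cholinergic neurons of the basal forebrain. Isl1 was at 6.45, 6.76 and 6.07 in zinc diet mice against 4.88, 5.11 and 5.16 in control mice, a log2 change of 1.37 ± 0.18 (SE; limma, adjusted p = 0.22). Lhx8 was at 5.39, 6.13 and 4.39 in zinc diet mice against 4.13, 2.79 and 3.33 in control mice, a log2 change of 1.89 ± 0.50 (SE; limma, adjusted p = 0.59). With values under 4 set to 4 its change was 1.26 and its unadjusted p 0.0157 (limma), no longer past 0.01.

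**Figure D5:**
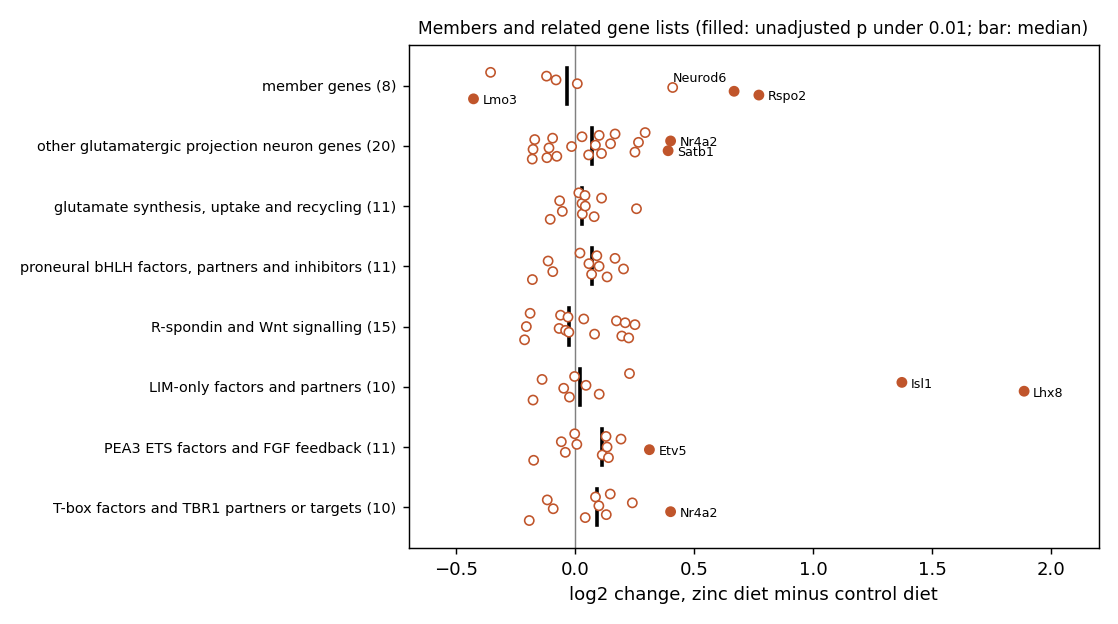
Log2 change, zinc diet minus control diet, of the 8 measured member genes and of the 7 related lists, each gene by its brightest probe set and each list with its number of tested genes and its median as a bar. Filled points are past an unadjusted p of 0.01. The open points of the related lists lie between -0.21 and 0.29, inside the range set by Lmo3 at -0.43 and Rspo2 at 0.77.

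For the 4 members whose diets did not overlap, the genes with the most similar profile over the 6 arrays were sought by the root mean square difference between log2 values, each centred on its own mean. For Rspo2 they were Tcfl5 (0.10 log2 units), Sdr39u1 (0.13) and the member Neurod6 (0.13), where the profile of Rspo2 itself deviated from its mean by 0.44. For Neurod6 they were Bmp2 (0.10), 1110032F04Rik (0.12) and Tcfl5 (0.12), so Tcfl5 stood near both. Tcfl5 was at 5.41, 5.67 and 5.79 in zinc diet mice against 4.76, 5.02 and 4.93 in control mice. For Lmo3 they were Tmem175 (0.049), Ttc28 (0.052) and Adcyap1 (0.064), and for Neurod1 they were B4galt4 (0.049), Dnmt1 (0.050) and Hes6 (0.058). The probe sets of Tcfl5 and Dnmt1 have designs by which transcripts of other genes can also be read. Those of B4galt4 and Hes6 have a design shared by alternative transcripts of the same gene. These likenesses rest on 6 arrays, were picked from all tested probe sets with a single symbol and are given as a description.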

How the data were processed

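RNA from 6 amygdala samples (500 ng each) was read on Affymetrix Mouse430_2 arrays. The values are log2 probe set levels deposited by the authors. R 2.15.1 and GCRMA 2.28.0 are named, per the submitters' processing notes, without role or order, and further steps are not given in the sources used here. From the range of the values a log2 scale was inferred, with array medians between 4.04 and 4.09. Pairwise correlations were between 0.991 and 0.996, and 0 pairs of arrays were identical. Centring is unknown. No detection call was used here, and 3 arrays per diet limit the precision.

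Control probe sets (64) were left out, and 22877 probe sets with a mean of at least 4 were fitted by diet alone (limma 3.58.1 under R 4.3.3, two-sided moderated test), with Benjamini-Hochberg adjustment over all of them. The platform annotation gave several symbols for 932 probe sets and none for 9211. Gene numbers matched RefSeq (GRCm38.p6) for 34754 single-symbol probe sets, and 0 symbols changed. The fit was tested on simulated data. Alternatives were other filters, normalizations, variance models and probe set summaries, the title number as a covariate, and leaving out each mouse.

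Named genes were all members, the genes of each related list past an unadjusted p of 0.01 (otherwise the smallest p), and the 3 nearest profiles of each member without overlap. Lmo1, Lmo2, Lmo4, Camk2a, Bcl11a and Spred1 and the marker genes named were picked once their values were known. The members, lists and motifs were chosen with earlier results of these data known.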

Additional observations from a re-analysis of the deposited data

How the results depend on the processing

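Over 15 alternatives the changes of Rspo2 (0.63 to 0.88), Neurod6 (0.49 to 0.80), Tbr1 (0.27 to 0.53), Lmo3 (-0.53 to -0.37) and the brighter probe set of Neurod1 (-0.44 to -0.27) kept their direction, and Rspo2 kept an unadjusted limma p under 0.01. Of 161 member values recomputed, 149 kept their direction, 12 changed sign and 0 passed the adjusted threshold. The sign changes were in Slc17a6 and Slc17a7, whose changes in the reported fit lay between -0.08 and 0.01. Slc17a6 1428379_at gave -0.0062 under quantile normalization, -1e-04 with the title number as a covariate and -0.11 to 0.10 when a mouse was left out. Slc17a6 1418610_at gave 0.012 under median centring, 0.16 with array weights and -0.47 to 0.37 when a mouse was left out, and Slc17a7 gave -0.17 to 0.018.

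The count past the adjusted threshold was 2 with a mean of at least 6, 3 with trend and robust eBayes, 1 with probe sets averaged per gene, 1 with the title number as a covariate and 0 in each fit without a mouse. The count past an unadjusted p of 0.01 (349) was 550 with no filter, 628 with array weights, 176 without zinc diet replicate 7 and 558 without control diet replicate 1, the lowest and highest without a mouse. The members' count of 3 was 4 under quantile normalization, with no filter, with a mean of at least 6, with trend and robust eBayes, with array weights and with probe sets averaged per gene, and ranged from 1 to 3 without a mouse. The related genes' count of 5, recomputed by a choice made after seeing the data, was 4 with values under 4 set to 4, 3 with a mean of at least 6, 8 with trend and robust eBayes and 2 to 5 without a mouse. No paired analysis was possible because the diets share no replicate number.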
